A study of Mus musculus with 4 samples.

Results

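The results concern the gene desert on the upstream side of Shh, from its near edge to the middle of the desert, in mouse cells. The region is chr5:28800001-29150000 (mm9), 350 kb long, and its members are the 3132 non-control probes whose listed position lies inside it, of 48316 such probes on the array. The choice used position alone and no measured value. Nuclear RNA was measured in 46c embryonic stem cells (ESC) grown in supplemented GMEM and in neural progenitor cells (NPC) that were derived from 46c cells with the N2B27 protocol, with 2 samples per group and 4 arrays in all. 46c is a single mouse ESC line with a fluorescent reporter at the Sox1 locus, which marks neural commitment. No other treatment, genotype or time was given in the labels, and both groups share the line. RNA was taken from chromatin of nuclei prepared without RNase, amplified as whole transcriptome and labelled with Cy3, so the signal has no strand. Whether the 2 samples of a group are separate cultures is not in the labels, and the p-values below reflect the spread among these samples alone, which can be technical in origin.

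Shh encodes a secreted signalling protein that patterns the neural tube, the forebrain and the limbs. Its expression in each tissue depends on enhancers spread over a large upstream gene desert, and SBE6 is one of them, known as an enhancer active in the brain and in neural progenitors. Enhancers and open chromatin can be transcribed into short-lived, mostly nuclear RNA, which nuclear RNA profiling is suited to read. In the RefSeq gene table (GRCm38.p6, used for names and order only), Rnf32 is the next protein-coding gene after Shh on this side. Between them the table lists the long non-coding RNA genes 9530036O11Rik, Gm42243, Gm35688 and Gm35881 and the pseudogenes Gm10290 and Gm52839. Which of these lie inside the region in mm9 was not determined, so no gene is named from a position below. The Shh start was taken as 355 kb before the far edge of the region and SBE6 as 100 kb upstream of that start, both approximate, so every distance below is approximate too. The markers meant to check both cell types could not be placed on probes, because the probes carry no gene names.

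The 3132 probes are 60 bases long and cover 53.7% of the region. Of the gaps between neighbouring probes, 78.0% are 0 bases, and the widest gap is 8775 bases. For windows of 5 kb with at least 5 probes, 64 of 70 could be tested, holding 7 to 73 probes each with a median of 53. No spot of the region was saturated and 14 were left out on single arrays as outliers. A probe is called detected here where the scanner software marked its spot well above background on that array. The lowest signal so marked was 13.6 and 15.7 intensity units on ESC 1 and ESC 2 and 14.04 and 11.02 on NPC 1 and NPC 2.

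Over the array, 48.9% of probes were detected on average, against 1.36% to 2.42% of the 660 negative control spots on the 4 arrays. NPC 2 stood apart at some bright probes: 1643 probes of the array were at least 2 log2 units lower on it than on each of the other 3 arrays, on which they were detected. The same count was 361 for ESC 1, 165 for ESC 2 and 169 for NPC 1. In the region it was 71 for NPC 2 (2.27% of its probes), 11 for ESC 1, 0 for ESC 2 and 4 for NPC 1.

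The first comparison asked how much of the desert gave a signal in each cell type. The detected share of the region was 30.8% on ESC 1, 34.5% on ESC 2, 28.2% on NPC 1 and 33.1% on NPC 2. The groups overlap, since NPC 2 lies between both ESC arrays. The ESC mean was 32.7% ± 2.66 and the NPC mean 30.6% ± 3.45 (SD over 2 arrays each), and the change of -2.03 percentage points (SE 3.08) was smaller than the spread between arrays (exact permutation test, two-sided, p = 0.667). It was -4.47 without NPC 2 and 0.415 without NPC 1, and it turned to 8.83 points when a probe counted as detected above the 99th percentile of the array's negative control spots. The shares were then 15.5%, 16.9%, 17.9% and 32.1% on ESC 1, ESC 2, NPC 1 and NPC 2, so NPC 2 alone stood well above the rest. That cutoff was 35.4, 43.6, 28.0 and 11.7 intensity units in the same order, lowest on NPC 2. With 2 arrays a side, the smallest p this exact permutation test can give is 0.333. In bulk samples, fewer cells with an RNA and less RNA per cell cannot be told apart.

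The region was mostly dim. Its median intensity was 5.01 and 6.86 on ESC 1 and ESC 2 and 3.65 and 4.32 on NPC 1 and NPC 2, below the lowest signal well above background on the same array each time. Probes set to the array's lowest value, called the floor, made up 41.6%, 39.0%, 46.9% and 40.2% of the region in that order of arrays. Of the 3132 probes, 750 (23.9%) were at the floor on all 4 arrays, against 12.4% of the whole array.

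Set against its surroundings, the region was detected less often than the rest of the Shh tile, which is the run of 12390 probes that contains it. Within each array the region's detected share minus that of the other 9258 probes of the tile was -17.1, -16.6, -16.4 and -12.1 percentage points on ESC 1, ESC 2, NPC 1 and NPC 2. The equally long piece on the Shh side had means of 54.2% ± 0.818 for ESC and 51.7% ± 0.0419 for NPC. The equally long piece on the far side was close to the region, with means of 31.9% ± 3.67 for ESC and 28.6% ± 2.75 for NPC (SD over 2 arrays each). The gap between the region and the rest of the tile changed by 2.63 percentage points from ESC to NPC (SE 2.17, exact permutation test, two-sided, p = 0.333).

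Detection was uneven along the desert. Per window the mean detected share ran from 11.1% to 68.2% in ESC with a median of 31.6%, and from 6% to 62.5% in NPC with a median of 30.0%. The highest windows were those starting at 28810001 and 28910001, 17.5 and 117.5 kb from the Shh start at their centres, but they hold only 16 and 11 probes. The window from 28810001 was detected at 50% and 68.8% on ESC 1 and ESC 2 and at 62.5% on each NPC array, so the groups overlap there. Windows with more probes that ranked among the 5 highest in either group started at 28845001, 28850001, 28880001, 28950001 and 29045001. Of these, the window from 28850001 was detected at 50.9%, 49.1%, 45.3% and 43.4%, and the window from 29045001 at 41.3%, 44.4%, 42.9% and 47.6%, in the order ESC 1, ESC 2, NPC 1, NPC 2. Both NPC arrays lie below both ESC arrays in the first of this pair and overlap them in the second.

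The probes detected in ESC and in NPC overlapped widely. On all 4 arrays 641 probes of the region (20.5%) were detected, and on none 1720 (54.9%). There were 52 probes (1.66%) detected on both ESC arrays and no NPC array, and 20 (0.639%) on both NPC arrays and no ESC array. Over the whole array these shares were 31.8% on all 4 arrays, 33.0% on none, 1.48% in ESC alone and 10.8% in NPC alone, so the ESC share of the region was near that background. In the rest of the Shh tile 2.45% were detected in ESC alone and 0.907% in NPC alone. The 641 probes make up 76.1% of those detected on both ESC arrays and 87.1% of those detected on both NPC arrays. The same shares were 82.9% and 68.2% over the whole array and 76.6% and 89.7% in the rest of the Shh tile. Across the 3132 probes the Spearman coefficient was 0.822 for the ESC pair, 0.776 for the NPC pair and 0.755 to 0.824 between groups. For the whole array the coefficients between groups were lower, 0.646 to 0.670, while in the rest of the Shh tile they were 0.748 to 0.874. Probes are not independent replicates, and all these arrays share the probes' own sequence and position, so the coefficients are a description.

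Whether a probe was detected depended little on its neighbour. A probe directly after a detected neighbour, with a gap of at most 100 bases, was detected in 33.2%, 38.7%, 32.1% and 37.1% of cases on ESC 1, ESC 2, NPC 1 and NPC 2. After an undetected neighbour the shares were 30.2%, 33.0%, 26.7% and 31.1%. The difference was thus 3.01 to 6.06 percentage points in the desert. In the rest of the Shh tile it was 18.8 to 28.3 points, and in the equally long piece on the far side 5.41 to 10.05. These differences are a description over probes of the same arrays, with no test.

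Runs of at least 4 successive probes detected on both arrays of a group, with gaps of at most 500 bases, were counted. Of the region's probes, 26.9% were detected on both ESC arrays and 23.5% on both NPC arrays. Some runs arise at these rates without any link between neighbours, and how many was not determined. Runs in other parts of the array were not counted, so the counts are a description. ESC had 13 such runs with 64 probes, NPC had 9 with 45 probes, and 6 of each overlapped a run of the other group. The longest held 7 probes in both groups and lay at chr5:28827486-28827935 and chr5:29046825-29047519. At the first of these, 32.7 kb from the Shh start, the median intensity was 64.2, 76.5, 73.4 and 63.1 on ESC 1, ESC 2, NPC 1 and NPC 2. At the second, 252 kb away, it was 55.8, 128, 83.6 and 73.5. All 7 probes of each run were detected on every array. The groups overlap at both in median intensity. On the mean over the run's probes of the scaled log2 level used below, both NPC arrays lie below both ESC arrays (-1.42 and -1.41 against -0.99 and -1.04 at the first, -1.64 and -1.37 against -1.08 and -0.90 at the second). These measures differ in scaling and also in using a median or a mean over the probes.

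The second comparison asked where the RNA level differed between ESC and NPC. Levels are log2 intensity relative to each array's 75th percentile of 15356 probes detected on all 4 arrays, and changes are NPC minus ESC. The mean level of the region was -4.19 on ESC 1, -4.16 on ESC 2, -4.64 on NPC 1 and -4.71 on NPC 2. Both NPC arrays lie below both ESC arrays, with a change of -0.50 (SE 0.037, exact permutation test, two-sided, p = 0.333). The arrays' floors moved with this difference: on the same scale they were -5.77, -5.88, -6.07 and -6.36, so a probe at the floor on every array changes by -0.39 on this scale. The median change over the region's probes was also -0.39.

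By limma with Benjamini-Hochberg adjustment over all 964 windows of the array, 33 of the region's 64 windows were lower in NPC (51.6%), against 29.3% of all windows, and 96 of 197 (48.7%) in the rest of the tile. None was higher, at an unadjusted p under 0.05 either, against 22.0% of all windows called higher and 0 of 197 in the rest of the tile. The median change was -0.48 in the region, -0.55 in the rest of the tile and -0.34 over all windows. Both NPC arrays were below both ESC arrays in 63 of the 64 windows, against 58.2% of all windows. On this scale both NPC floors lie below both ESC floors, so probes at the floor on all 4 arrays pull a window this way by construction. Such probes made up 23.9% of the region and 12.4% of the whole array. The count of 33 depends on the scaling. It was 2 with chromosome 12 left out of the percentile and 1 with each array set equal over the probes detected on no array, and 0 without ESC 1 or without ESC 2 (12 and 4 at an unadjusted p under 0.05). With a single ESC array no window of the whole array passed the threshold in either direction, so a lost call there says nothing about the region, and the median change of the region's windows was -0.49 without ESC 1 and -0.48 without ESC 2.

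In the 7 segments of 50 kb, counted from the Shh side, the changes were -0.56, -0.49, -0.68, -0.54, -0.44, -0.44 and -0.47. All 7 were lower in NPC by limma with Benjamini-Hochberg adjustment (adjusted p 0.0123 to 0.0130), against 52.8% of the 125 segments of the array, and none was higher, against 22.4%. In the rest of the Shh tile 17 of 21 segments (81%) were lower and 0 higher. Of the 7, the segment with the largest fall, chr5:28900001-28950000, had levels of -4.27, -4.13, -4.77 and -4.99 on ESC 1, ESC 2, NPC 1 and NPC 2, and its groups do not overlap. None of the 7 passed the threshold when chromosome 12 was left out of the percentile (2 at an unadjusted p under 0.05), with the SRN control spots as scale (1) or with the dim probes set equal (0). None passed either without ESC 1 (5 unadjusted) or without ESC 2 (2 unadjusted), where the changes were -0.75 to -0.42 and -0.61 to -0.45. The level followed distance from the Shh start only weakly over the 64 windows, with Spearman coefficients of -0.16, -0.25, -0.13 and -0.06 on ESC 1, ESC 2, NPC 1 and NPC 2, given as a description.

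The within-array difference between the region and the rest of the tile takes the scaling out. The region's mean level minus that of the rest of the tile was -0.80, -0.84, -0.80 and -0.64 log2 units on ESC 1, ESC 2, NPC 1 and NPC 2. This gap differed between groups by 0.10 (SE 0.08, exact permutation test, two-sided, p = 0.333). The value was 0.02 without NPC 2, 0.18 without NPC 1 and 0.08 (SE 0.02) with normexp. Against the piece on the Shh side the change of the region differed by -0.04 (SE 0.10, p = 1) and against the piece on the far side by 0.05 (SE 0.06, p = 0.667), by the same exact test. The difference from the Shh side changed sign with normexp, with a common floor, without ESC 2 and without NPC 1 (0.01 to 0.05), and the one from the far side without ESC 2 (-0.01).

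One window changed more than the other windows of the region, while in the rest of the Shh tile the lowest window change was -2.12. The window from 28910001 had levels of -2.64 and -2.23 on ESC 1 and ESC 2 and of -3.67 and -3.88 on NPC 1 and NPC 2, so the groups do not overlap. It fell by 1.34 on the log2 scale (SE 0.20, limma with Benjamini-Hochberg adjustment, adjusted p = 0.0102), a 2.53-fold higher level in ESC. It was the one window of the 64 called lower under each of 9 scalings, with changes from -1.72 to -0.51 over 17 alternatives. With a single ESC array, where no window of the array passed, its change was -1.55 without ESC 1 and -1.13 without ESC 2.

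The 11 probes of this window lie within chr5:28912726-28913775, about 1 kb that starts 17.7 kb beyond the place given for SBE6. Of the 9 probes detected on at least 1 array, 7 had both NPC arrays below both ESC arrays, against 48.1% of such probes in the region and 28.2% over the whole array. The window was singled out for its large change in these same values, so this share is a description and adds no support of its own. On all 4 arrays 5 of the probes were detected. The brightest, at chr5:28913390-28913449, had intensities of 414 and 520 on ESC 1 and ESC 2 and of 119 and 362 on NPC 1 and NPC 2. The directly adjoining probe at chr5:28913450-28913509 had intensities of 33.9, 54.9, 43.3 and 55.5, with no gap between the groups and a change of 0.02. So neighbouring probes in this 1 kb did not move by the same amount, and changes ran from -3.03 to 0.02 with a median of -1.38. No single probe of the window passed the adjusted threshold, and without its lowest probe the window's change was -1.17. The detected share was 63.6%, 72.7%, 54.5% and 54.5%, and its change missed the threshold (limma with Benjamini-Hochberg adjustment, adjusted p = 0.103).

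A cluster of 4 adjacent windows, chr5:28940001-28960000, also changed more than the rest of the region. In the rest of the Shh tile the lower quartile of the changes of 197 windows was -0.74 and the lowest -2.12. The cluster was chosen after its values were seen and has no test of its own. It lies 145 to 165 kb from the Shh start and begins 45 kb beyond the place given for SBE6. Over its 176 probes the mean level was -4.01 and -3.89 on ESC 1 and ESC 2 and -4.68 and -4.89 on NPC 1 and NPC 2, a change of -0.83 against -0.48 in the rest of the region. On ESC 1 and ESC 2 35.8% and 40.9% of its probes were detected, and on NPC 1 and NPC 2 26.1% and 29.0%, a change of -10.8 percentage points against -1.51 in the rest of the region. On both measures the 2 NPC arrays lie below the 2 ESC arrays.

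Each of the 4 windows was called lower by limma with Benjamini-Hochberg adjustment, with changes of -0.77, -0.89, -0.82 and -0.80 and adjusted p of 0.0184, 0.0173, 0.0137 and 0.0312. With chromosome 12 left out of the percentile, the window from 28950001 alone of the 4 passed the threshold, and with the dim probes set equal none did (adjusted p 0.0925 to 0.244). With a single ESC array, where no window of the array passed, the changes were -0.88, -1.01, -0.86 and -0.76 without ESC 1 and -0.65, -0.77, -0.79 and -0.83 without ESC 2. The last of the 4 was the one window of the region whose detected share passed the same test: 41.0% on each ESC array, 30.8% on NPC 1 and 28.2% on NPC 2, adjusted p = 0.0314 by limma. Without ESC 1 and without ESC 2 its change was the same, -11.5 percentage points, and missed the threshold (adjusted p = 0.171 and 0.173 by limma). The change turned to 6.41 percentage points when a probe counted as detected above the 99th percentile of the negative control spots. That cutoff was lowest on NPC 2, at 11.7 intensity units. The background for the limma call on the detected share was 3.84% of all windows lower and 24.3% higher, and none of the region's windows was higher. In the rest of the Shh tile 10 of 197 windows were lower and 1 higher. At an unadjusted p under 0.05 the counts in the region were 4 lower and 0 higher. Both NPC arrays had a lower detected share than both ESC arrays in 11 of 64 windows, against 18.5% of all windows, and a higher one in 0, against 34.5%.

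Within this cluster, 5 of 176 probes (2.84%) were detected on both ESC arrays and no NPC array, against 1.66% in the region and 1.48% over the array. There were 0 the other way round, against 0.639% in the region and 10.8% over the array, and 38 on all 4. ESC had 3 of its short runs here, from 28951033, 28956877 and 28958313, and no NPC run lay in it, given as a description. At the run from 28951033 the median intensity was 48.1 and 74.2 on ESC 1 and ESC 2 and 30.4 and 22.0 on NPC 1 and NPC 2, and 4 of its 5 probes were still detected on each NPC array. At the run from 28956877 the median intensities 17.2, 29.6, 27.6 and 31.3 overlap. The means over its probes of the scaled level do not, with -2.62 and -2.69 in NPC, -2.12 on ESC 1 and a higher level on ESC 2. Here too a median is set beside a mean, so more than the scaling differs between these measures.

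The 100 kb centred on the place given for SBE6, chr5:28845001-28945000, held 15 windows with 651 probes. Its detected share was 33.5%, 37.6%, 30.0% and 34.9% on ESC 1, ESC 2, NPC 1 and NPC 2, and the groups overlap. The windows changed by -1.34 to -0.31 with a median of -0.55. Of the 15, 8 were called lower (53.3%), against 25 of the other 49 windows of the region and 29.3% of all windows. With chromosome 12 left out of the percentile, the window from 28910001 alone of the 15 was called lower. The same held with the SRN control spots as scale and with the dim probes set equal. For the detected share, 0 of the 15 windows passed the threshold of the limma fit, and 1, the window from 28910001, had an unadjusted p under 0.05. The window that ends at the place given for SBE6, from 28890001, had levels of -4.20, -3.82, -4.51 and -4.60 and missed the threshold (change -0.54, limma with Benjamini-Hochberg adjustment, adjusted p = 0.0573). The next one, from 28895001, had levels of -3.59, -3.56, -4.10 and -4.20 and passed it under the main scaling (change -0.58, limma, adjusted p = 0.0263). Its call was lost with chromosome 12 left out of the percentile, with the SRN control spots as scale and with the dim probes set equal. The lower quartile of the region's window changes was -0.57 and the median -0.48, and in both windows the NPC arrays lie below the ESC arrays. The window from 28895001 also holds the probe with the highest mean log2 level in NPC, at chr5:28899651-28899710, with intensities of 831, 626, 712 and 606 and no separation of the groups.

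The other windows that fell most started at 28820001, 28825001, 28840001, 29040001 and 29145001, with changes from -0.67 to -0.64. The window from 28825001 had levels of -3.58 and -3.51 in ESC and -4.06 and -4.37 in NPC, and the window from 29145001 had -4.22 and -4.08 in ESC and -4.77 and -4.84 in NPC. In all 5 the groups do not overlap in level. None of the 5 passed the threshold when chromosome 12 was left out of the percentile (adjusted p 0.104 to 0.181), with the SRN control spots as scale, or with the dim probes set equal.

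The single probes gave few calls. By limma with Benjamini-Hochberg adjustment over all probes, 34 of 3118 tested were lower in NPC, against 1.58% of all probes tested, and 4 were higher, against 10.7%. In the rest of the Shh tile 206 of 9182 were lower and 18 higher. The 34 lower probes lie in 26 windows, 19 were detected on both ESC arrays, and 16 of those on no NPC array. Leaving out 1 array moved these counts: to 63 lower and 1 higher without ESC 1, 44 and 10 without ESC 2, 160 and 41 without NPC 1, and 80 and 34 without NPC 2.

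Among the lower probes, the one at chr5:28945271-28945330, inside the cluster of 4 windows, had intensities of 95.6 and 134 on ESC 1 and ESC 2 and lay at the floor on NPC 1 and NPC 2. Its level was at least 10.2-fold higher in ESC (adjusted p = 0.0104). Here, "at least" sets the ESC mean against the mean over the NPC arrays of the lowest level well above background. On an NPC array where the probe was detected, its own level was used instead. Probes at chr5:28801644-28801703, chr5:29138919-29138978 and chr5:29082011-29082070 were likewise at the floor on both NPC arrays and at least 5.21-fold, 6.83-fold and 7.47-fold higher in ESC. The brightest of the named lower probes, at chr5:29139099-29139158, had intensities of 406 and 478 in ESC and 8.47 and 15.6 in NPC, where it was detected on NPC 2 alone. Its level was at least 33.3-fold higher in ESC by the same rule (limma, adjusted p = 0.0105), and its log2 change ran from -5.89 to -2.98 over 13 alternatives. Of the 10 named lower probes, 5 were called under each of 13 alternatives: those at 28801644, 28945271, 29016410, 29138919 and 29139099.

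The probe directly after chr5:29139099-29139158 had intensities of 50.9, 68.8, 72.9 and 74.6, and the one directly before, not detected on any array, had 5.87, 5.78, 6.25 and 8.35. At the first of these the NPC arrays lie above the ESC arrays. For the 13 probes named by the rule, none of the flanking probes passed the adjusted threshold, and the lowest adjusted p was 0.0629. The probe at chr5:29023143-29023202 had the lowest adjusted p of those higher in NPC, with intensities of 3.32 and 3.12 in ESC and 36.2 and 43.9 in NPC, at least 2.44-fold higher (limma, adjusted p = 0.0119), and it was called under 11 of 13 alternatives. The probe directly after it was at the floor on all 4 arrays. The probe at chr5:29061832-29061891 was at least 1.31-fold higher in NPC (adjusted p = 0.0499), a call kept under 4 of 13 alternatives and lost without ESC 1, ESC 2 or NPC 2, and the probe before it was detected on both ESC arrays and no NPC array.

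The brightest probes of the desert, ranked by their mean log2 level in ESC, differed by array as well as by group. The probe at chr5:28800590-28800649 had intensities of 1137 and 1393 on ESC 1 and ESC 2, 1087 on NPC 1 and 62.5 on NPC 2. The probe at chr5:28862680-28862739 had 898, 595, 794 and 2.19. At both, NPC 1 was close to the ESC arrays and NPC 2 alone was low. Without NPC 2, in a fit whose spread came from the ESC arrays alone, the changes of the window from 28910001 and of the 4 clustered windows ran from -1.24 to -0.58.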

How the data were processed

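Nuclear RNA of 4 samples was read in 1 colour on custom Agilent tiling arrays, 1 per sample. The deposited spot intensity had its background subtracted and low values set to a floor by Feature Extraction 11.5.1.1, per the file headers. Detection, saturation and outlier marks (0 or 1, unit other) were deposited in the same scanner files. The values of the authors' series table look like log2 values. The submitters' processing notes name limma without a version, and how that table was normalized and centred is not stated in the material at hand. Its column medians were 4.95, 4.95, 4.97 and 4.99, in the order ESC 1, ESC 2, NPC 1, NPC 2, and each column's Spearman coefficient with its own scanner intensity was 0.861, 0.984, 0.992 and 0.994, so the ESC 1 column follows its file less closely. That table served only as an alternative. Probe positions are on mm9, per the file headers.

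Control spots (3188) were left out, and outlier spots on the array concerned. Log2 intensity was scaled by each array's 75th percentile over 15356 probes well above background on all arrays. Probes were averaged in 5 kb windows with at least 5 probes and 50 kb segments with at least 50, and fitted over the whole array with limma 3.58.1 in R 4.3.3 (lmFit, eBayes, group as the single term), with Benjamini-Hochberg adjustment and a threshold of 0.05. The detected percent per window was fitted the same way. Single values were compared by exact permutation over arrays (scipy 1.17.1). The scripts were tested on simulated data. Tables were made with Python 3.11.15 and pandas 2.3.3. The number of arrays limits the precision. Alternatives covered scaling, normexp (offset 50) plus quantile normalization (on the median and not the mean spot signal, which the files do not hold), the authors' values, a common floor, each array left out, the replicate number as a block, filters, window size and the detection mark.

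Named windows were at most 10 called in each direction with the largest change, the 5 with the highest detected percent in each group, and the windows within 100 kb around SBE6. Named probes were the 10 with the lowest adjusted p among called probes detected on both arrays of the higher group, in each direction. The members and lists were chosen with earlier results of these data known. Sequences are not printed, because probe sequences and an mm9 genome were not used here.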

Additional observations from a re-analysis of the deposited data

Results flagged for a closer look

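These values come from control spots of the array, which are not among the probes compared above, though the SRN spots served as an alternative scale. The shares below exceeded the mean share of negative control spots well above background, and no test was run. Spots named SRN were well above background in 56.4% on average over the 4 arrays. Spots named DCP were so in 10.6%, spots named GD in 8.86%, spots named Mm in 6.25% and spots named SM in 2.17%.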

How the results depend on the processing

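With 2 arrays per group the precision is low, and many probes of the region lay at the floor, where values have no order. Relative to the main scaling, the median change of all windows moved by -0.38 when the percentile was taken over all probes and by 0.39 with the dim probes set equal. No window was called higher under any alternative. The windows called lower (33) became 64 with the percentile over all probes, 2 without chromosome 12, 2 with the SRN spots, 1 with the dim probes set equal, 56 with the authors' values, 5 with a common floor and 11 with the median over probes, and 0 to 49 with one array left out. The mean change of the region (-0.50) was -0.88 with the percentile over all probes, -0.29 without chromosome 12, -0.21 with the SRN spots, -0.11 with the dim probes set equal, -0.16 with normexp, -0.58 with the authors' values and -0.32 with a common floor, and -0.53 to -0.47 with one array left out. Segments called lower (7) were 0 without chromosome 12, with the SRN spots and with the dim probes set equal, and 0 to 7 with one array left out. Probes called lower (34) were 59 (all-probe percentile) and 56 with a common floor, and 44 to 160 with one array left out; probes called higher (4) were 2, 10 with the dim probes set equal, 0 with normexp, 0 with the authors' values, 8 with a common floor and 1 to 41 with one array left out. The contrast with the piece on the Shh side was -0.16 with dim probes left out. Detection above the 99th percentile of the negative control spots gave a change of 8.83 percentage points in the region, with that percentile at 35.4, 43.6, 28.0 and 11.7 intensity units on ESC 1, ESC 2, NPC 1 and NPC 2; windows with a lower detected share (1) were then 0. That count was 4 in windows of 2 kb and 0 to 1 with one array left out, and the count of windows with a higher share (0) was 0 to 1. The change in the region's detected share was -4.47 to 0.415 with one array left out. Among single windows, probes and shares, the values that changed sign were 0.084 for the window from 28880001 with the dim probes set equal, -0.11 for the probe at 29124326 with the authors' values and 6.41 for the detected share of the window from 28955001 with the negative control percentile. With the replicate number as a block, 9 windows and 13 probes were called lower, 1 probe higher and 0 windows by the detected share; the deviations of same-numbered arrays correlated at 0.05 over all windows, so the numbers were not taken to pair the samples. Of the values of single windows, segments, probes and shares under alternatives, 362 kept direction and side of the threshold, 148 lost the call, 8 gained it and 3 changed sign. The cause of these differences was not tested.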
